A study of Mus musculus with 6 samples.

Results

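The irradiated spleen without p53 gave a list of 83 ChIP-seq peaks, the regions called from a ChIP with the p53 antibody in the absence of its target. The input library was not used here, so recovery by the antibody was not separated from pile-up of reads. All 83 were taken as members, of 48115 peaks in the 5 lists of the series, and they covered 10780 bp on 17 chromosomes. Each was compared with the wild-type lists by an overlap of at least 1 bp, and the sequence under it was read to say what kind of locus it was. The control was chromatin of total splenic cells, after lysis of red blood cells, from Trp53-/- mice of strain C57/Bl6, taken 4 h after the whole animal had been irradiated with 7 Gy (IR). The age of these animals is not given in the sources used here. The wild-type lists came from Trp53+/+ mice of the same strain at 8 weeks of age, either untreated (mock) or 4 h after 7 Gy, whose spleens had been divided with B220 magnetic beads into B cells and the rest, called non-B cells. In B cells the IR list held 24507 peaks and the mock list 1413, and in non-B cells 21400 and 712. The same polyclonal antibody, CM5p, was used throughout, and chromatin was pooled across animals. Each group had 1 library, so there was no spread between replicates to test against. The intervals below cover counting error only, and they treat the 83 control peaks as independent. Joined where closer than 20 kb, these peaks formed 36 loci, so the intervals may be too narrow even for counting error. The control was total spleen and the wild-type samples were fractions, so the genotype and the cell mixture cannot be told apart. The narrowest control peak was 55 bp wide, as in the B cells mock list, whereas the B cells IR list began at 175 bp and that of non-B cells at 174 bp, so widths and peak numbers of the control and IR lists are not directly comparable.

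p53 is a transcription factor that binds a pair of decamers, the p53 response element, and is stabilised after DNA damage. An antibody ChIP in cells that lack its target still recovers some DNA, and sequence that exists in many more copies in the cell than in the assembled genome piles up reads at the few copies that were assembled. In the mouse such sequence includes the satellite DNA around the centromeres, made of short units repeated head to tail, the ribosomal DNA arrays that encode the rRNA precursor, and families of repeats on the Y chromosome.

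The sequences below show the kinds of locus that made up the control list. They are given 5′ to 3′ on the plus strand of mm9 and in lower case, apart from the capitals described with each set. The first pair rank 2 and 3 in the list by deposited value, read here as −log10 of the peak p-value, and come from the start of chromosome 9, where a capital marks a base that is the same 234 bp further along.
chr9:3025837-3025904: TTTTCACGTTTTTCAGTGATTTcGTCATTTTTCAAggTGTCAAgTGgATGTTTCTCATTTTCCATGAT
chr9:3027111-3027181: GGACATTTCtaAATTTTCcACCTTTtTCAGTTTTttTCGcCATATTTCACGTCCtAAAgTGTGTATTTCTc
In the first, 63 of 68 bases recurred at that distance, and in the second 61 of 71, the mark of a tandem array. The next pair compare the control peak on chromosome 6 with the matching stretch of the locus on chromosome 17, with capitals at the 3 of 66 bases that differ.
chr6:3151477-3151542: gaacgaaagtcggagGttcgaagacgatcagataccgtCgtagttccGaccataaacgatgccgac
chr17:39984333-39984398: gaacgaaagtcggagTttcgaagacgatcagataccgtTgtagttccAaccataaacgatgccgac
The last pair are the highest control peak of the chromosome 17 locus and the control peak in Cdk8, shown because their wild-type counterparts were among the highest-valued sites that met a control peak. Neither has capitals.
chr17:39983405-39983477: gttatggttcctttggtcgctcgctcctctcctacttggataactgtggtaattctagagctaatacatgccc
chr5:147072741-147072862: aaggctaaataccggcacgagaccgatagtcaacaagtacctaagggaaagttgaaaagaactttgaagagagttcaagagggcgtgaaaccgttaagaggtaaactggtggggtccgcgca
To the eye these read like the conserved parts of the small and the large ribosomal RNA. That reading is background knowledge, since no full-length reference rRNA was used here, and it was not tested.

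Peaks were first sorted by a rule on the reference alone. A peak was called tandem when 2000 bp around it matched itself at 70% or more of bases after a shift of 50 to 500 bp, other repeated when the median 31-base word in it occurred at least 2 times in the genome, and unique otherwise. By this rule 14 of the 83 control peaks were tandem, or 16.9% (95% Clopper-Pearson interval 9.54 to 26.7%), 28 were other repeated, or 33.7% (23.7 to 44.9%), and 41 were unique, or 49.4% (38.2 to 60.6%). The same rule called 0 of the B cells IR peaks tandem (0%) and 0 of the non-B cells IR peaks (0%). It called 1.84 and 2% of the peaks of those lists other repeated, and 98.1 and 98% unique. No control peak lay on the mitochondrial genome or matched it, 0 of 83 (95% Clopper-Pearson interval 0 to 4.35%). In the IR lists 14 B cells peaks (0.0571%) and 3 non-B cells peaks (0.014%) were mitochondrial. Both shares lie within that interval, so the 0 does not set the control list apart. The annotation held 332 nuclear rRNA genes and no control peak matched any of them over 50% or more of its length. The rule thus put 0 peaks (0% in either IR list too) in its ribosomal class. Because no full-length rRNA was searched, this 0 cannot show that the lists lack ribosomal sequence.

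The rule divided clusters of similar sequence. Of the 22 peaks at the start of chromosome 9, for 21 the best shift was 234 bp, yet only 14 reached the 70% limit, with self-matches from 59.9 to 85.1%. The peaks of the chromosome 17 locus had a median of 1 genome copy and passed as unique. A second sorting, by alignment of each peak to the 3 clusters of the list, was therefore added after the data had been seen, and families in the following are those of this second sorting. Each peak was tested against the chromosome 17 locus, then the chromosome 9 array, then the chromosome 2 cluster, and took the first match. Peaks of the chromosome 9 array also aligned to the chromosome 2 cluster, at best identities from 92.9 to 100%. How peaks divide between the satellite and chromosome 2 families therefore depends on this order. The sorting gave 33 peaks of the satellite family, 7 of a repeat on chromosome 2 and 15 of the locus on chromosome 17. A further 18 were dispersed repeats with at least 50 alignments in the genome, and 10 were few-copy peaks with between 1 and 12 alignments.

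The satellite family was the largest, with 39.8% of the control peaks, and held 8 of the 10 highest values. The deposited value ranged from 9.02 to 44.3 in the family with a median of 23.4, against a median of 17 over the whole list. The 3 highest of all were at chromosome 9, 3022090 to 3022228 (44.3), 3025837 to 3025904 (40.3) and 3027111 to 3027181 (40.2). These stretches lie in introns and exons of Gm16869 and Gm10717, predicted genes annotated over the array. The family was AT-rich, with a GC content of 30 to 41.2%, and its members had from 54 to 4065 alignments in the genome.

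On chromosome 9 the array held 22 peaks between 3000020 and 3038224, at the first assembled bases of that chromosome, where mouse chromosomes have their centromere. A further 6 members lay in Gm10801 and Gm10800 on chromosome 2, where the peaks at 98507379 to 98507454 and 98502410 to 98502643 ranked 4 and 5 by value in the list, with 39.7 and 39.6. Their best identity to the chromosome 9 array was 96.1 and 95.7%. The remaining 5 lay outside both clusters. Of these the peak at chromosome 12, 3110004 to 3110073, had a value of 32.2 and an identity of 97.1%, the peak at chromosome 9, 35112807 to 35113087, a value of 21.5 and 95%, and 1 was in an intron of Cdk5rap2 on chromosome 4, a gene for a centrosome protein, at 70039168 to 70039266 with 16.8 and 94.8%. The others were at chromosome 12, 75905386 to 75905482 (17.8, identity 94.1%), and in an intron of 4930468A15Rik on chromosome X, 73844365 to 73844434 (13.2), which had the lowest identity of the family, 86.8%.

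None of the 33 satellite peaks overlapped a peak of any of the 4 wild-type lists. The wild-type lists held 0 peaks in the span of the chromosome 9 array and 0 in the chromosome 2 cluster, in IR and in mock, and 0 IR peaks of either cell type aligned to the array over 50% or more of their length. The array thus supplied the highest values of the control list and no wild-type site.

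The chromosome 2 repeat family, which is not independent of the satellite family, showed the same pattern at 7 peaks. Of these, 4 lay in the cluster itself, at 98505257 to 98505338 (value 35.4), 98506410 to 98506493 (29.2), 98502724 to 98503074 (23.3) and 98506575 to 98506669 (12.6). The other 3 were at chromosome X, 139917567 to 139917633 (33.4), chromosome 9, 24346502 to 24346571 (25.3), and in an intron of Chl1 on chromosome 6, a cell adhesion gene, at 103599166 to 103599232 (17.7). Their GC content was 32.6 to 37.3%, close to that of the satellite family, and 0 of them overlapped a wild-type peak. Among IR peaks that met no control peak, 9 B cells peaks and 5 non-B cells peaks aligned to the chromosome 2 cluster over at least 50% of their length, but none of these shared 10% of its 31-base words with a control peak.

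The 18 dispersed repeat peaks had low values, from 5.85 to 19.4 with a median of 10, and none was among the 20 highest of the list. Of these, 9 were on chromosome Y and 4 on chromosome X. The chromosome Y peaks lay between genes, and the highest, at 2604517 to 2604573 (value 18.8), had a median of 121 genome copies of its 31-base words. The wild-type IR lists, although far longer, held 1 chromosome Y peak (B cells) and 2 (non-B cells), and the mock lists 0. The study's methods state that pooled animals were matched for sex but do not name it. Whether sex bears on these counts was not tested. The highest of the family was in an exon of Astx6 on chromosome X, at 120325207 to 120325304 (19.4, 129 copies). None of the 18 overlapped a wild-type peak.

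**Figure D1:**
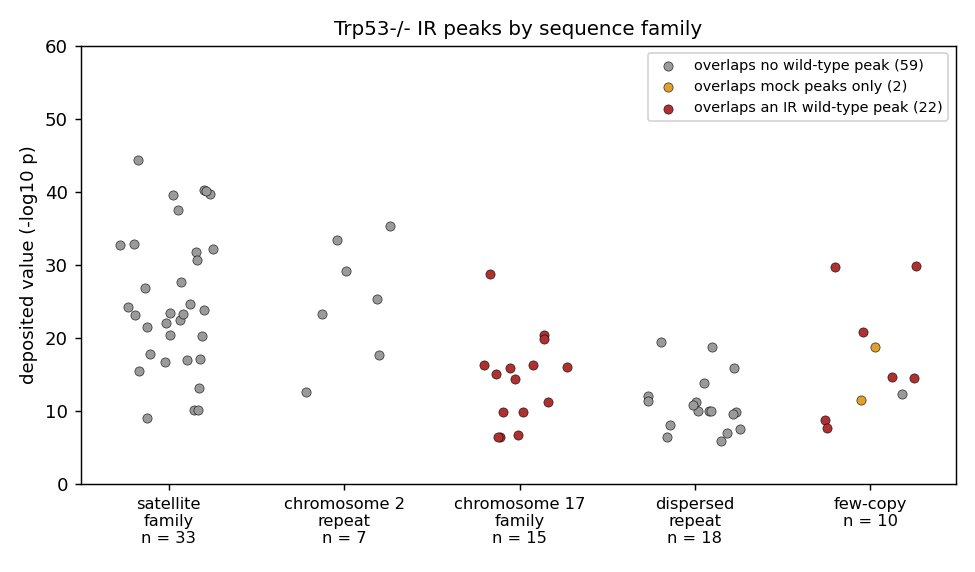
Deposited value (−log10 p, vertical axis) of each of the 83 Trp53-/- IR peaks, 1 point per peak, grouped by sequence family and coloured by overlap with wild-type peaks. The satellite family holds the highest values, up to 44.3, and none of its 33 peaks overlaps a wild-type peak, whereas all 15 peaks of the chromosome 17 family overlap an IR peak.

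The chromosome 17 family was the reverse. Its 15 peaks had values from 6.45 to 28.7 with a median of 15.1, and all 15 overlapped a non-B cells IR peak, 13 a B cells IR peak, and 15 a peak in each mock list. Of these, 14 lay between 39979971 and 39985702 on chromosome 17, where they covered 61.2% of 5732 bp. In that span B cells IR peaks covered 81%, non-B cells IR peaks 98.9%, B cells mock peaks 90.9% and non-B cells mock peaks 92.1%. These shares are not a measure of relative signal, since depth is unknown and peak widths of the control and IR lists are not directly comparable. Only the last 3 control peaks lay in an annotated gene, an exon of AY036118. RefSeq, on a later assembly, lists Rn18s-rs5, a pseudogene related to the small ribosomal RNA, directly before AY036118. The highest control peak there was at 39983405 to 39983477, and its GC content of 46.6% was the lowest of a family that reached 73.6%. The member outside the locus, on chromosome 6, had a value of 16.3 and an identity of 95.5% to the locus.

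**Figure D2:**
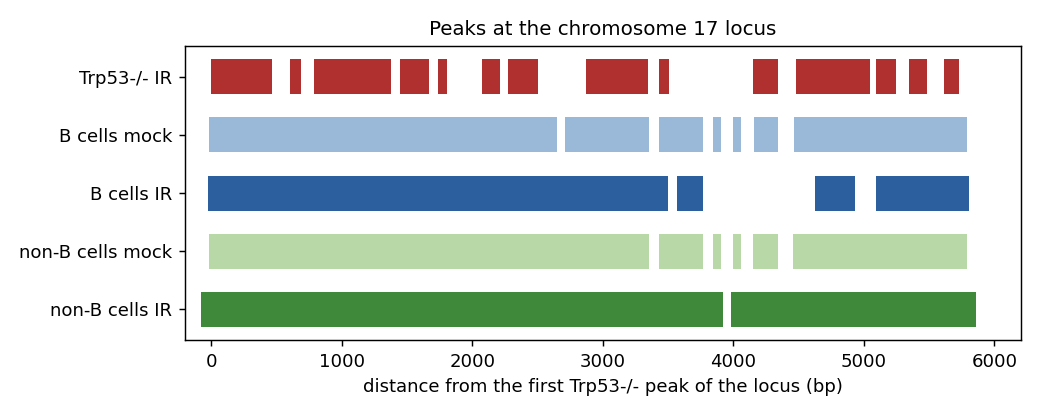
Extent of the peaks of the 5 lists at the chromosome 17 locus, with distance from the first Trp53-/- peak in bp on the horizontal axis and 1 row per list. The 14 control peaks are short and separate, and the wild-type lists cover between 81 and 98.9% of the span.

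The 10 few-copy peaks were the most mixed. Their values ran from 7.61 to 29.9, their GC content from 41.9 to 68%, and 7 overlapped an IR peak, of which 5 overlapped both IR lists. With 300 bp added on either side, 6 of the 10 aligned to another few-copy locus or to the chromosome 17 locus. The locus at chromosome 16, 17222434 to 17222493, aligned to the chromosome 17 locus at 94.9% identity over 136 bp and to the chromosome 3 locus at 88.9% over 99 bp. The Cdk8 locus aligned to chromosome 17 at 93.9% over 33 bp. These loci, flanks included, thus shared stretches of sequence with each other or with the chromosome 17 locus, although none had more than 8 alignments in the assembly. Whether the shared stretches fall inside the peaks was not tested. The peaks on chromosomes 15, 19 and X and the second one on chromosome 16 had no such link.

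The control peaks that met a wild-type IR peak were richer in GC than most of those that did not. GC content was 46.6 to 73.6% with a median of 64% in the 22 that did, and 30 to 58.3% with a median of 36.7% in the 61 that did not. The B and non-B cells IR lists had medians of 50.2 and 50.7%. The ranges overlapped, and the values came from few loci, since 14 of the 22 belonged to the chromosome 17 locus.

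**Figure D3:**
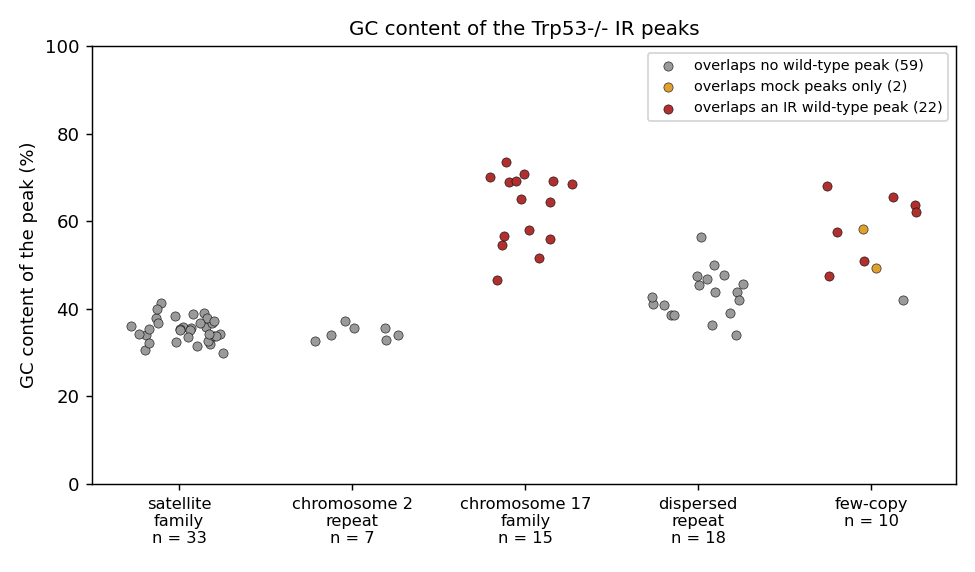
GC content of each of the 83 Trp53-/- IR peaks in percent, by sequence family and coloured by overlap with wild-type peaks. Satellite and chromosome 2 repeat peaks lie at or below 41.2%, and the peaks that overlap an IR peak lie at 46.6% or above.

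Counted over all families, 18 of 83 control peaks overlapped a B cells IR peak, or 21.7% (13.4 to 32.1%). For the non-B cells IR list the number was 22, which is 26.5% (17.4 to 37.3%). The B cells IR peaks covered 0.382% of the bases of chromosomes 1 to 19, X and Y, and the non-B cells IR peaks 0.31%. All 18 were among the 22, so 4 control peaks met a non-B cells IR peak alone and 0 a B cells IR peak alone. They included the peaks on chromosomes 19 and 6 and 1 in the chromosome 17 locus. When control peaks closer than 500 bp were merged the counts fell to 6 and 9, since most of the 22 were neighbours. The 61 control peaks that overlapped no IR peak had a median distance of 309221 bp to the nearest one. This median depends on few loci, since 22 of the 61 lay in the chromosome 9 array and 10 in the chromosome 2 cluster. None of the 61 lay within 1 kb of an IR peak and 2 within 5 kb, the closest at 1172 bp. Of the 61, 2 overlapped a peak in both mock lists.

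Counted from the wild-type side, 7 of 24507 B cells IR peaks (0.0286%) and 9 of 21400 non-B cells IR peaks (0.0421%) overlapped a control peak. They fell into 8 loci, of which 5 were in both IR lists, 3 in non-B cells alone and 0 in B cells alone. These 16 are the IR peaks for which the control also gave a peak, and all but 1 are described here. In the far shorter mock lists 14 of 1413 B cells peaks (0.991%) and 13 of 712 non-B cells peaks (1.83%) did so too. All 16 also overlapped a peak in the mock list of the same cells, 7 of 7 (B cells) and 9 of 9 (non-B cells), against 4.28 and 2.43% of all peaks in those IR lists.

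The highest-valued of them was in Cdk8 on chromosome 5, which encodes a kinase of the Mediator complex. In non-B cells IR it ran from 147072479 to 147072921 with a value of 115, the 96.4th percentile of its list, and in B cells IR from 147072702 to 147072906 with 45.4, the 83.7th percentile. The control peak beneath was among the weakest of its list, with a value of 7.61. When a control value of at least 8 was required, this site was lost from both lists, leaving 6 B cells and 8 non-B cells IR peaks over a control peak. The mock values were 40.3 (B cells) and 35.8 (non-B cells), so a peak was present here in all 5 lists. The site lies in an intron of Cdk8, reaches an exon of AC113316.1 in non-B cells, and is in the promoter, 5 kb upstream to 2 kb downstream of a start, of AC113316.1.

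The chromosome 17 locus gave 3 B cells IR peaks over control peaks, at 39979949 to 39983470 (value 36.3, 77.1th percentile), 39985066 to 39985777 (26.2, 64.1th) and 39984600 to 39984904 (13.3, 29.1th). In non-B cells IR 2 peaks spanned it, at 39979893 to 39983890 (78.1, 93.7th percentile) and 39983955 to 39985826 (69.8, 92.5th). The 2 non-B cells peaks and the first of the B cells peaks were the 3 widest of the 16, and the widest covered 9 control peaks. A further B cells IR peak in the locus, at 39983538 to 39983740 (13.02), missed the nearest control peak by 60 bp and so is not among the 7.

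On chromosome 11, between genes and 2847 bp from Gm11668, a non-B cells IR peak at 108872943 to 108873468 had a value of 64.8 (91.7th percentile) and a B cells IR peak at 108873066 to 108873425 a value of 15.1 (34.9th). The control gave 29.7 there, higher than the B cells IR value. On chromosome 3, 284270 bp from Pxmp3, the non-B cells IR peak at 5860510 to 5860885 had 51.4 (87.7th percentile), the B cells IR peak at 5860528 to 5860875 had 13.5 (29.8th), and the control 8.74.

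At Pgk1 on chromosome X, which encodes a glycolytic enzyme, the overlap lay directly before the gene. The non-B cells IR peak at 103382039 to 103382406 ended 32 bp from it and had a value of 46 (85.3th percentile), and the B cells IR peak at 103382120 to 103382393 had 21.7 (55.6th). The control peak, 331 bp wide with a value of 29.9, contained the whole B cells IR peak. Pgk1, AY036118 and AC113316.1 were the 3 genes whose promoter held an IR peak that overlapped a control peak.

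Of the sites in non-B cells IR alone, those on chromosomes 19 and 6 had low ranks. On chromosome 19, 15652 bp from Gm6020, the peak at 61275511 to 61275837 had 10.6 (15.8th percentile) over a control value of 14.7. On chromosome 6, the peak at 3151349 to 3151658 had 10.1 (12.1th percentile) over 16.3. At both the control value was above the wild-type IR value.

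By rank, the 7 B cells IR peaks had a median percentile of 55.6 and 1 lay in the top 20% of its list, while the 9 non-B cells IR peaks had a median of 87.7 and 6 lay in the top 20%. By construction 19.9% of the peaks of each list lie there. These values depend on depth and are not normalised between libraries, and whether the cell types differed here was not tested.

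The deposited value after irradiation was then set beside that in mock at the same site. In B cells it was lower after irradiation at 4 of 7 peaks, against 3.63% of all B cells IR peaks with a mock counterpart. Examples were chromosome 11 (15.1 against 50.2 in mock) and chromosome 3 (13.5 against 30.8). The others were in the single chromosome 17 locus (36.3 against 43.7, and 13.3 against 18.8), where the third peak was higher (26.2 against 18.8). In non-B cells it was lower at 3 of 9 peaks, among them chromosome 6 (10.1 against 35.6) and chromosome 19 (10.6 against 23.6). Of all such peaks in non-B cells 5.78% were lower. Elsewhere the IR value exceeded the mock value by a median of 53.4 (B cells) and 70.6 (non-B cells), over peaks that met no control peak, while at the control sites the median difference was -5.59 and 15.5. The rise at Cdk8 in non-B cells, from 35.8 to 115, was the largest of the 16.

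**Figure D4:**
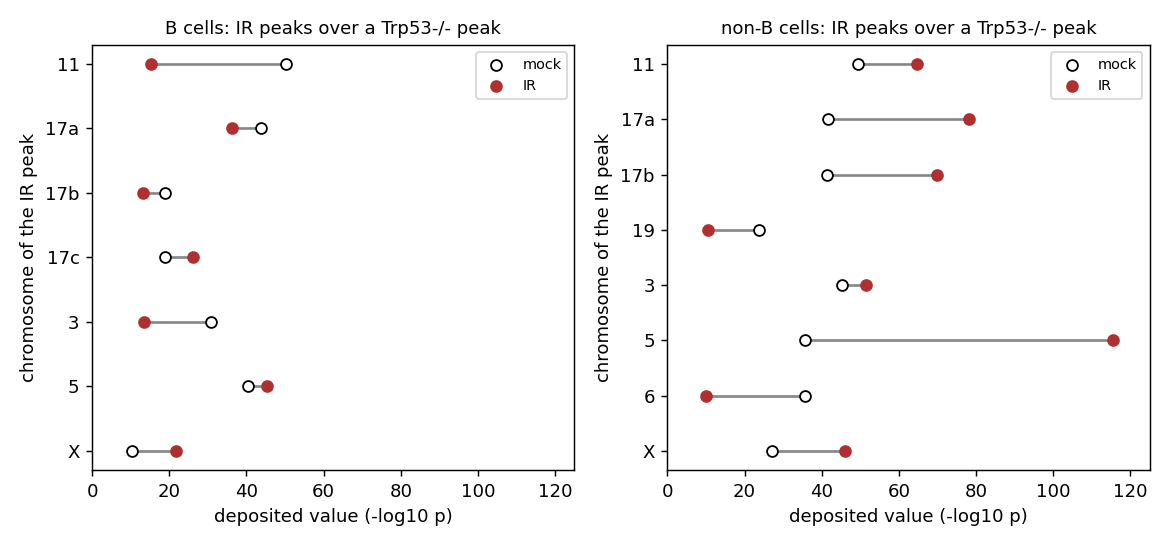
Deposited value (−log10 p, horizontal axis) of each wild-type IR peak that overlaps a Trp53-/- peak (filled) and of the highest peak of the same cells in mock at that site (open), 1 row per IR peak labelled by chromosome, with letters for several peaks on 1 chromosome. The IR value is below the mock value at 4 of the 7 B cells peaks and at 2 of the 8 non-B cells peaks plotted, 1 non-B cells peak being left out.

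None of the 16 IR peaks over a control peak had an unsplit response element in the window searched, 0 of 7 (B cells) and 0 of 9 (non-B cells). The element is here a pair of RRRCWWGYYY decamers without spacer, looked for up to 300 bp from the midpoint with 3 mismatches allowed. Peaks of the chromosome 17 locus, up to 3522 bp (B cells) and 3998 bp (non-B cells) wide, were therefore searched in part only. The 16 peaks fall into 8 loci, 5 of them in both lists, so they are not 16 separate sequences. In the full IR lists 15.3% of B cells and 15.4% of non-B cells peaks had one. Whether 0 among so few loci differs from these shares was not tested. Among the control peaks 1 of 83 did, or 1.2% (0.0305 to 6.53%), at chromosome 15, 74917295 to 74917430. Its element, GGACTAGTTATATCATGTTT at chr15:74917620-74917639, lay 189 bp outside the peak, had 3 mismatches, and the peak overlapped no wild-type list. The absence of these letters says only that they are not in the windows searched.

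Exact 31-base words shared with a control peak pointed to no site beyond those that overlapped one. In B cells IR 5 peaks, and in non-B cells IR 4, had at least 50% of their 31-base words in a control peak, and all 9 overlapped a control peak. The median width was 82 bp for control peaks, 340 bp for B cells IR peaks and 315 bp for non-B cells IR peaks. A control peak of median width therefore holds too few words to reach that limit alone. The lack of further sites at 50% thus says little. With a limit of 10% of words the numbers were 7 and 8, again all among the overlapping peaks. Alignment, which tolerates mismatches, added the 9 and 5 peaks similar to the chromosome 2 cluster and 1 B cells IR peak of the chromosome 17 locus, all without overlap. It used the whole span of each cluster, of which control peaks covered 34.8% on chromosome 2 and 61.2% on chromosome 17. Similarity to a control peak is therefore not shown, and all of them shared 0% of their 31-base words with one. Some, such as the non-B cells IR peak in Bmp6 (2 mismatches), had an unsplit element, and others, such as those in Heca, had none. Within 5 kb of a control peak but not over it lay 4 B cells and 4 non-B cells IR peaks. Apart from the chromosome 17 peak given above and 1 weak peak in non-B cells, these were in the promoters of Kpna1, an importin gene, and Ddx26b. The Ddx26b peaks, with values from 22.9 to 31.5, were 2941 bp or more from the control peak.

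The promoters of known p53 target genes were examined as a check of the labels. Of 27 such genes, among them Cdkn1a (cell cycle arrest), Mdm2 (p53 turnover), Bbc3 and Bax (apoptosis), 0 had a control peak in the promoter, and since 0.059% of all annotated gene names had one (20 of 33924), that count says nothing particular about targets. The B cells IR list had a peak in 26 of these promoters, against 30.8% of all annotated gene names, and the non-B cells IR list in 26, against 29.7%. Perp was the gene without a peak in either. At these promoters B cells IR values ranged from 12.6 to 318 and non-B cells IR values from 16.8 to 621. Of the 20 genes with a control peak in the promoter, 12 were predicted genes of the chromosome 9 array and 2 the genes of the chromosome 2 cluster. The Trp53 gene itself had 0 control peaks and 2 peaks in each wild-type IR list. Peaks cannot show the deletion in the control, since a list without a peak over Trp53 does not tell whether the gene is present.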

How the data were processed

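p53 ChIP-seq was read from 5 deposited peak lists, 1 per library. The input library was not used here. Per the methods of the study and its processing notes, the authors aligned reads to mm9 with BWA (0.6.2) and called peaks with MACS. The deposited value of a peak is the authors' −log10 of a p-value, as inferred from the values themselves, and was assumed to be the same in the Trp53-/- list. The calling limit in the study's methods would be 8 on this scale, yet every list held lower values. These were 8 of the 83 control peaks (9.64%), 31.6% of B cells mock peaks and 20.9% of non-B cells mock peaks. In the IR lists the shares were 4.5% (B cells) and 4.53% (non-B cells). Which of the limit or the unit accounts for this was not tested. The lists were used unfiltered. Read depth is unknown and values are not normalised between libraries.

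Coordinates count from 1 on mm9 (NCBIM37), with genes from GENCODE vM1. Families required blastn (2.17.0) hits of at least 80% identity over 50% of the peak, and word copies were counted on either strand in 211 reference sequences. The rule for naming peaks took the 3 highest of each class, the 15 highest unique ones, and those that met an IR peak. Peaks on chromosomes 15 and 16, in Cdk5rap2, Chl1 and Astx6, on chromosome Y and in the rest of the families were named after their values were seen. 1 site is counted but not reported here. The members and lists were chosen with earlier results of these data known. The overlap, copy, self-match and element steps recovered 12 of 12 known quantities on simulated data. Python 3.11.15, numpy 2.4.6, scipy 1.17.1, numba 0.67.0 and matplotlib 3.10.9 were used.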

Additional observations from a re-analysis of the deposited data

Results flagged for a closer look

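The mock lists, which are outside the comparison with the IR lists, held more of the control peaks than those lists did. Of the 83 control peaks, 24 (28.9%) overlapped a B cells mock peak and 24 (28.9%) a non-B cells mock peak. They were the same 24 in both, although the mock lists were far shorter. These were the 22 that met an IR peak and 2 more on chromosome 16. The first of these, at 17222434 to 17222493 (value 11.5), lay 8369 bp from Rimbp3, and the second, at 35981805 to 35981865 (18.8), in an exon of Gm15564 and the promoter of Kpna1. The nearest IR peaks to the second began 1172 bp away in B cells and 1261 bp away in non-B cells. The cause was not tested.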

How the results depend on the processing

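Depth is unknown and each group had 1 library, so no library was left out. No paired analysis was possible because a group never had more than 1 library. Of 65 recomputed counts, 43 stayed within 1.5 times of the reported count and 22 did not. The control peaks over a B cells IR, a non-B cells IR or either IR peak (18, 22 and 22) became 4, 5 and 5 at a value of at least 20, 6, 9 and 9 with peaks closer than 500 bp merged, and 5, 8 and 8 without the chromosome 17 cluster, the last added after seeing the data. Each of these leaves fewer control peaks by its construction. With control peaks widened by 5 kb, 11 in place of 7 B cells IR peaks met one, and 13 in place of 9 in non-B cells. Tandem peaks numbered 6 in place of 14 at a self-match of 80%, and other repeated ones 13 in place of 28 at 5 copies or 10 with 50-base words. Families by alignment, also added after seeing the data, gave 33 satellite, 15 chromosome 17 and 10 few-copy peaks in place of 14 tandem, 0 ribosomal and 41 unique. The unsplit element was found for 0 control peaks with 2 mismatches, 5 with 4, and 0 within the peak itself, in place of 1. Peaks sharing 90% of words with a control peak were 2 in place of 5 in B cells IR and 0 in place of 4 in non-B cells IR, and at 10% of words 8 in non-B cells IR.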
